A study of Mus musculus with 2 samples.

Results

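The 10 genes described here are transcription factors that serve as identity genes of excitatory neurons of the midbrain and diencephalon, followed in single-nucleus RNA-seq counts of whole fetal mouse brain: Tfap2d, Lhx9, Pou4f1, Barhl1, Barhl2, Shox2, Gbx2, Prox1, Lmx1a and Lmx1b. They were taken by symbol, and all 10 were found among the 55416 genes counted. The study set 1 library of wildtype fetal brain beside 1 library of Cav1 knockout fetal brain, Cav1 being the gene of caveolin 1, a membrane protein that forms small pits of the plasma membrane. The labels give the age as fetal and the tissue as whole brain, and they name no strain, stage or number of animals behind a library and not the part of Cav1 that was deleted. Nuclei were kept with at least 500 detected genes and at most 5% mitochondrial counts, which left 6686 wildtype and 6680 knockout nuclei. A unique molecular identifier (UMI) marks each captured RNA molecule, and 1797 wildtype and 2072 knockout nuclei held at least 1 UMI of a member.

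The midbrain and the diencephalon, which gives rise to thalamus and habenula, make glutamatergic neurons that package glutamate with the vesicular transporter Slc17a6 (VGLUT2). Homeodomain, POU and AP-2 factors divide these neurons into nuclei and layers. Tfap2d is an AP-2 factor of the developing dorsal midbrain, and Pou4f1 (Brn3a) is a POU factor of tectal, habenular and sensory neurons. Lhx9 is a LIM homeodomain factor of the tectum, pretectum and thalamus, and Shox2 is a homeodomain factor found in thalamus and tectum. Barhl1 and Barhl2 are BarH-like homeodomain factors of the diencephalon, midbrain and cerebellar lineages. Gbx2 marks the early thalamus and the anterior hindbrain, and Prox1 is a homeobox factor of thalamus, hippocampus, interneurons and lymphatic vessels. Lmx1a and Lmx1b are LIM homeodomain factors of the roof plate and floor plate, of the midbrain dopamine neurons and, for Lmx1b, of serotonin neurons; Lmx1a is also active in the hem from which choroid plexus and Cajal-Retzius cells arise.

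All but 3 of the members lie on chromosomes 1 and 2 in the GENCODE annotation of the GRCm39 build. On chromosome 1 are Tfap2d (19173246 to 19236570, plus strand), Gbx2 (89855678 to 89858920, minus strand), Lhx9 (138752924 to 138776341, minus strand), Lmx1a (167516677 to 167676310, plus strand) and Prox1 (189850232 to 189904637, minus strand). Barhl1 (28797691 to 28806680) and Lmx1b (33450977 to 33531093) lie on the minus strand of chromosome 2. Shox2 is on chromosome 3 (66879058 to 66889284), Barhl2 on chromosome 5 (106600389 to 106606336) and Pou4f1 on chromosome 14 (104699112 to 104705504), all on the minus strand. Genes on the opposite strand overlap 6 of them: Gm15825 and Gm10075 overlap Tfap2d, Ddx31 overlaps Barhl1, Rsrc1 overlaps Shox2, D130058E05Rik overlaps Gbx2, Prox1os overlaps Prox1 and Gm38011 overlaps Lmx1b. Whether the counting used strand is not given in the sources used here, so the split of reads between these partners is uncertain.

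RefSeq promoters on GRCm38.p6 were matched for all 10 members, in 14 windows of the 250 bases before a transcription start. The windows of Tfap2d, Pou4f1 and Prox1 are shown because in the nuclei these 3 genes went with a noncoding gene that overlaps or neighbours them, as described further on; capitals mark CpG dinucleotides. The Tfap2d window, the first of 3, is chr1:19102772-19103021 on the plus strand, the Pou4f1 window is chr14:104468000-104468249 on the minus strand, and the Prox1 window, the upstream one of a pair, is chr1:190170828-190171077 on the minus strand.
Tfap2d: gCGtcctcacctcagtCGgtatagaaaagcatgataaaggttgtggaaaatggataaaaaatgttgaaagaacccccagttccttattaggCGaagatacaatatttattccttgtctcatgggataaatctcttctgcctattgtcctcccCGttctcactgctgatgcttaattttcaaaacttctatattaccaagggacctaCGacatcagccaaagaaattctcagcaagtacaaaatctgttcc
Pou4f1: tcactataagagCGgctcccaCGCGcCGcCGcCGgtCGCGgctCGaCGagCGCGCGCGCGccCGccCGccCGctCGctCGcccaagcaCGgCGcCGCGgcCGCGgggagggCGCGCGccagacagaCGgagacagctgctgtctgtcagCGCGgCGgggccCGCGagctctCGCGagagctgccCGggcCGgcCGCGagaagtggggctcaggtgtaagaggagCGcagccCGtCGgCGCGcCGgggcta
Prox1: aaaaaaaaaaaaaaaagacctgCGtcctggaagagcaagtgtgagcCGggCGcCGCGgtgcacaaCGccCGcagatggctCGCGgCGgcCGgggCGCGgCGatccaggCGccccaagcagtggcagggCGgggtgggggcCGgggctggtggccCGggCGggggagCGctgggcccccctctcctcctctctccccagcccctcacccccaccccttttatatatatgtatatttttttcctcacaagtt
The Tfap2d window holds 5 CpGs at 39.6% G and C, the Prox1 window 20 at 64.8%, and the Pou4f1 window 47 at 78.0%. The third Tfap2d window holds 7 CpGs at 55.2%. Over 32851 such windows the median was 6 CpGs and 52.4% G and C, and 99.8% of windows held fewer CpGs than that of Pou4f1. The 36 CpGs of Barhl2 were also above the 90th percentile of 25, while Lhx9, with 4, lay under the median. The members thus had no CpG content in common.

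The kept nuclei carried 17205381 UMIs in the wildtype and 19878903 in the knockout library, with medians of 2134 and 2366 UMIs per nucleus. With 1 library per genotype there is no replicate check, no test was made between genotypes, and the 95% intervals (exact Poisson, Clopper-Pearson or binomial) cover counting error only. All 8 general neuron markers were detected in each library, with at least 3799 UMIs apiece, as the labelled tissue would have. Cav1 itself had 71 UMIs (4.13 CPM, counts scaled to a common total) over all wildtype nuclei and 80 (4.02 CPM) over all knockout nuclei. In endothelial cell-like nuclei it had 17 UMIs in 48 wildtype nuclei (65.6 CPM, interval 38.2 to 105.1) and 1 UMI in 64 knockout nuclei (2.76 CPM, interval 0.0698 to 15.4). Total Cav1 counts therefore did not separate the libraries, and those of the endothelial nuclei did. The libraries share 43 barcodes, 10 of them among the kept nuclei of both.

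The 10 members together gave 3958 UMIs in the wildtype and 5094 in the knockout library, 230 and 256 CPM, a log2 ratio of 0.16 (0.10 to 0.22). CPM stands for UMIs scaled to one common total in every library or cluster. Levels are compared between libraries or clusters for each gene, and values of different genes given side by side are not a ranking of them. Against the threshold of 1.5-fold, 2 of the 9 members with at least 100 UMIs over both libraries were higher in the knockout library, Lmx1b and Barhl1, and 0 were lower. Of 15528 genes with at least 100 UMIs, 2.12% were past that threshold upward and 0.605% downward. Fewer cells of a type and less RNA per cell cannot be told apart in these sums.

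**Figure D1:**
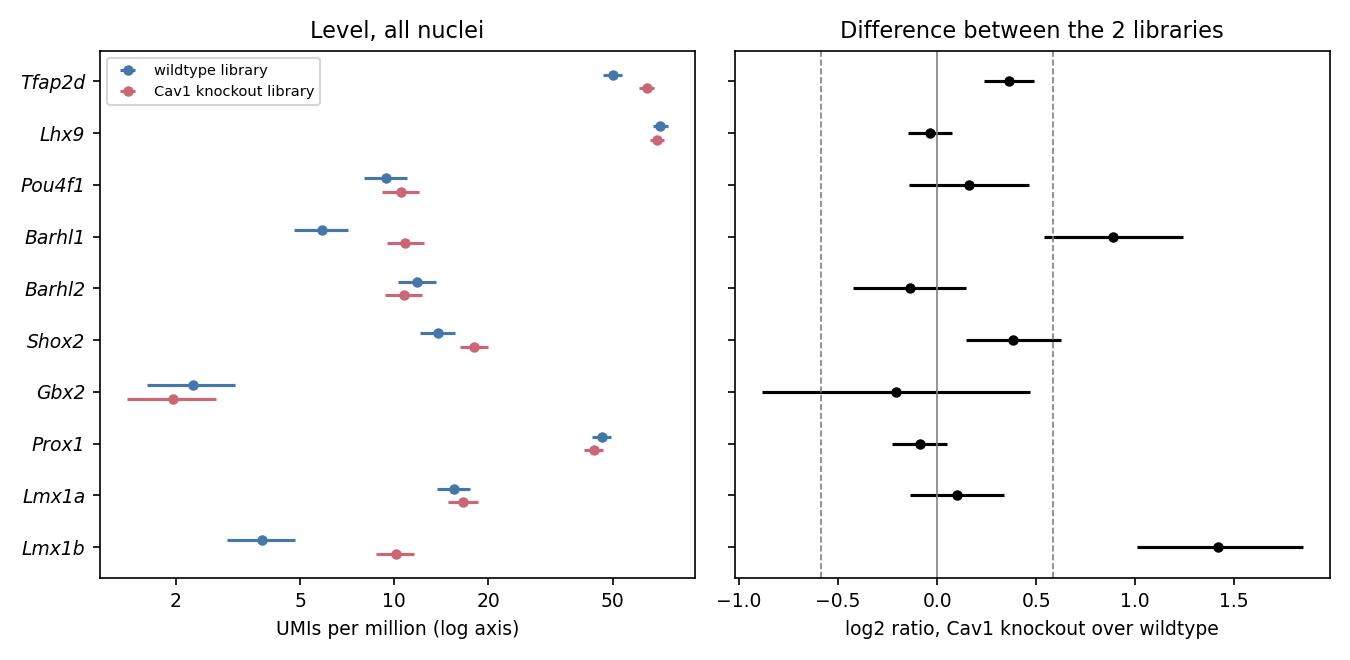
Left, level in CPM of each member over all kept nuclei (log axis) in the wildtype (blue) and knockout (red) library, 1 library each; right, the log2 ratio of knockout over wildtype, with dashed lines at 1.5-fold in either direction. Bars are 95% counting intervals, and Barhl1 and Lmx1b are the members whose ratio lies past the upper dashed line.

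Tfap2d had 861 UMIs in the wildtype library, 50.04 CPM (46.8 to 53.5), and 1278 in the knockout library, 64.3 CPM (60.8 to 67.9). The log2 ratio of Tfap2d was 0.36 (0.24 to 0.49), higher in the knockout library beyond counting error but short of 1.5-fold. Lhx9 had 1225 and 1382 UMIs, 71.2 and 69.5 CPM, and its log2 ratio of -0.03 (-0.15 to 0.08) leaves no difference detectable at this depth. Pou4f1, with 162 and 209 UMIs, had a log2 ratio of 0.16 (-0.14 to 0.46), and Barhl2, with 204 and 214, one of -0.14 (-0.42 to 0.14). Those intervals include 0 in either case. Shox2 had 238 UMIs at 13.8 CPM and 359 at 18.1 CPM, a log2 ratio of 0.38 (0.14 to 0.63). Like Tfap2d, Shox2 was higher in the knockout library by less than 1.5-fold.

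Barhl1 had 101 UMIs in the wildtype library, 5.87 CPM (4.78 to 7.13), and 216 in the knockout library, 10.9 CPM (9.46 to 12.4). The log2 ratio was 0.89 (0.54 to 1.24), with a lower bound that lies under 1.5-fold. Its relative Barhl2 did not share this difference, as given above. Lmx1b had 65 UMIs, 3.78 CPM (2.92 to 4.82), and 201 UMIs, 10.1 CPM (8.76 to 11.6), a log2 ratio of 1.42 (1.0 to 1.85). The whole interval of Lmx1b lies past 1.5-fold. Its relative Lmx1a, with 267 and 331 UMIs, had a log2 ratio of 0.10 (-0.14 to 0.34), so that of each of the paralogous pairs only 1 gene was past the threshold. Prox1, with 796 and 865 UMIs at 46.3 and 43.5 CPM, had a log2 ratio of -0.09 (-0.23 to 0.05). Gbx2 had 39 UMIs in each library, 2.27 and 1.96 CPM, too few to enter the count.

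The share of nuclei with a UMI was 5.59% for Tfap2d in the wildtype and 7.17% in the knockout library, 11.4% and 12.0% for Lhx9, 1.96% and 2.69% for Pou4f1, and 3.19% and 4.45% for Shox2. Those for Barhl1 were 1.30% and 2.75%, for Barhl2 2.60% and 2.87%, for Prox1 7.0% and 7.77%, for Lmx1a 1.90% and 2.26%, for Lmx1b 0.778% and 1.86%, and for Gbx2 0.553% and 0.584%. Knockout nuclei were deeper, with the medians given above. With every nucleus thinned to 1000 UMIs, which left out 846 wildtype and 1111 knockout nuclei that were shallower, the share of Lhx9 was 5.48% and 5.05%, that of Prox1 3.53% and 3.45% and that of Pou4f1 0.805% and 0.790%. With Barhl2 (1.16% and 1.06%) and Gbx2 (0.274% and 0.269%), these were 5 of 10 members whose knockout share was then no longer the higher one. The thinned shares of Tfap2d (3.29% and 4.399%), Shox2 (1.08% and 1.72%), Barhl1 (0.514% and 1.17%) and Lmx1b (0.240% and 0.646%), as well as of Lmx1a (1.03% and 1.13%), stayed higher in the knockout library.

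How many molecules a positive nucleus held differed between members. Of the Tfap2d-positive nuclei 47.6% (wildtype) and 54.1% (knockout) had 2 or more UMIs of it, with up to 24 in 1 nucleus. For Lmx1a this share was 51.2% and 45.0%, for Lhx9 37.3% and 35.4%, and for Prox1 29.7% in each library. Positive nuclei of Pou4f1, Barhl1, Barhl2 and Shox2 rested on a single UMI in most cases, with 10.3% to 17.6% holding 2 or more. No nucleus of the knockout library held more than 1 UMI of Gbx2.

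The members were then placed among clusters of nuclei, made from both libraries together without the 10 members and without Slc17a6 among the variable genes. Noncoding genes that overlap or neighbour a member, such as Prox1os and D130079A08Rik, were not left out in this way. D130079A08Rik leads cluster 5, and Prox1os is among the 10 leading genes of cluster 13. The placement of Pou4f1 and Prox1 is therefore not fully independent of the members. Of 24 clusters, 17 could be named from marker lists. Tfap2d, Lhx9, Pou4f1, Barhl1, Barhl2 and Shox2 had their highest level in cluster 5, in each library. This placement was not kept at other cluster resolutions: at Leiden resolution 0.5 only Tfap2d kept such a cluster in both libraries, with Barhl1 and Shox2 highest in a haemoglobin-led cluster and Lhx9 in a thalamic neuron-like one, and at resolution 2 Tfap2d was highest in a cluster led by Gm45321 and the other 5 in one led by D130079A08Rik. Cluster 5 held 308 wildtype and 321 knockout nuclei, 4.61% and 4.805% of the libraries, with medians of 2753 and 2840 UMIs. It carried 6 of 7 markers of midbrain or hindbrain excitatory neurons, but it was left unnamed because its 10 leading genes include Lef1, a marker of the thalamic list, and none of its own; the noncoding genes D130079A08Rik, D130009I18Rik and Gm30332 lead it.

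**Figure D2:**
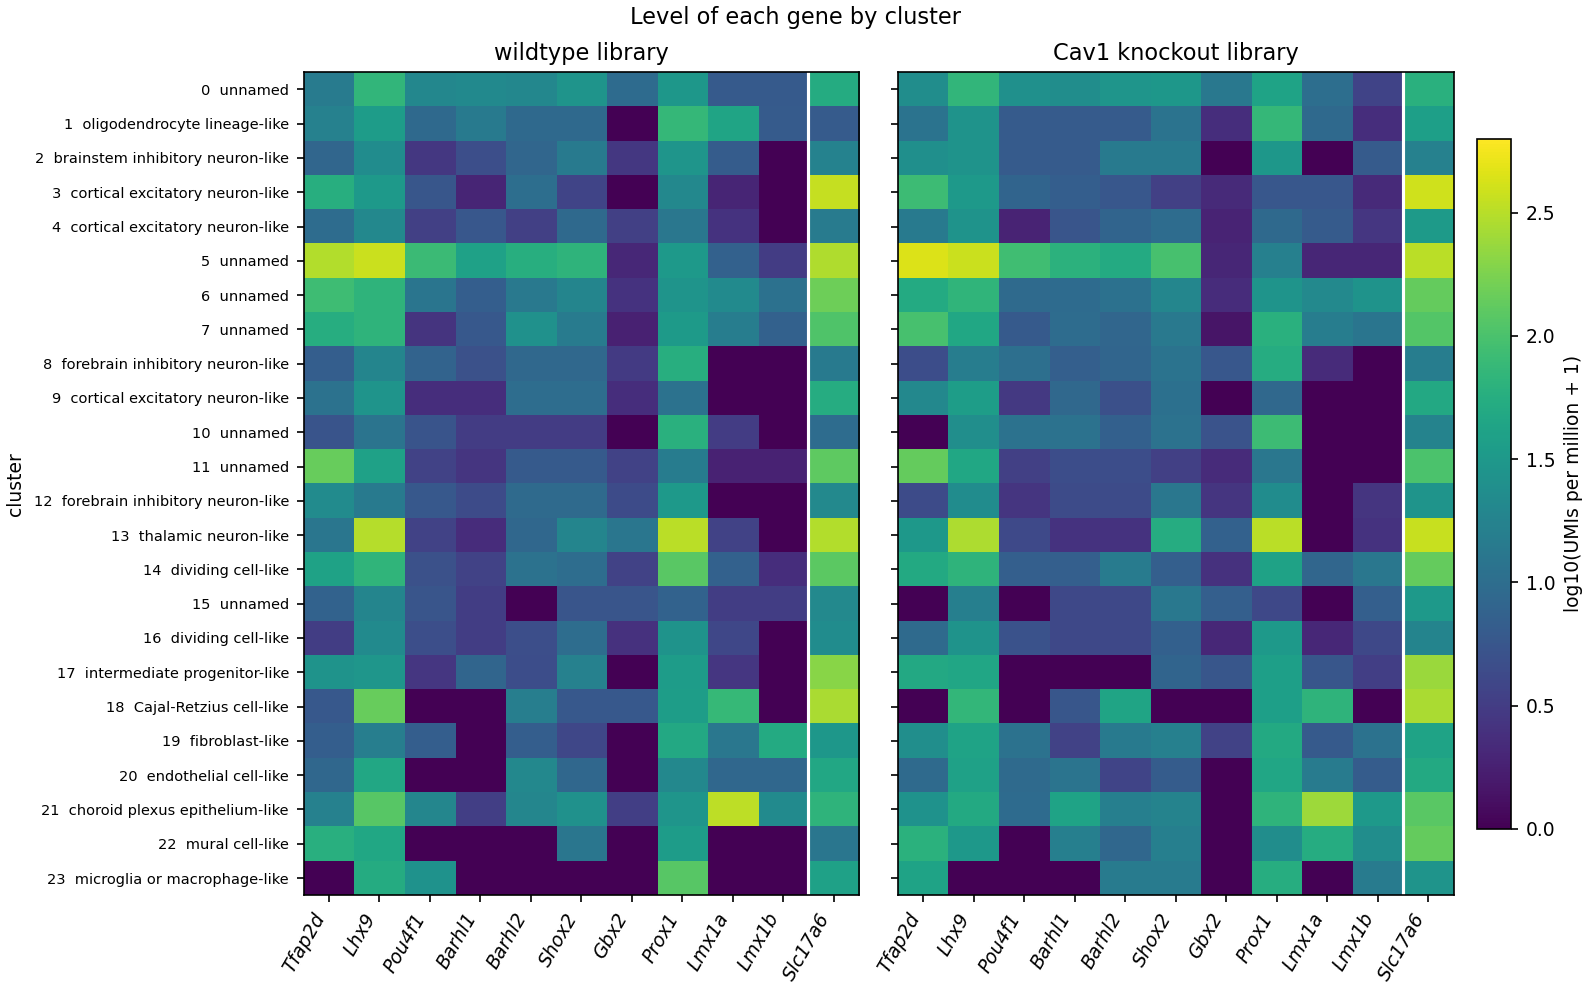
Level of the 10 members and of Slc17a6 (right of the white line) in each of the 24 clusters, as log10 of CPM plus 1, in the wildtype (left) and knockout (right) library. The row of cluster 5 is bright for Tfap2d, Lhx9, Pou4f1, Barhl1, Barhl2, Shox2 and Slc17a6, row 13 for Lhx9 and Prox1, and row 21 for Lmx1a.

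In cluster 5, Lhx9 stood at 376 CPM in both libraries and Tfap2d at 299 in the wildtype and 448 in the knockout library. Pou4f1 stood there at 80.3 and 86.5 CPM, Shox2 at 65.3 and 95.3, Barhl2 at 55.7 and 51.1, and Barhl1 at 38.6 and 61.9. Detection followed: 56.8% and 53.6% of its nuclei had a Lhx9 UMI, 33.8% and 45.5% a Tfap2d UMI, 17.2% and 21.5% a Pou4f1 UMI and 15.6% and 20.6% a Shox2 UMI. Cortical excitatory neuron-like nuclei gave 5.72% and 6.69% for Lhx9, 0.715% and 0.877% for Pou4f1 and 1.59% and 1.86% for Shox2, at median depths of 2204 and 2404 UMIs. For Tfap2d the cortical class gave 4.13% and 5.81%. Because Tfap2d was present in that class, the forebrain inhibitory neuron-like cluster 8 is given as well. Its shares were 1.10% and 0.743%, at median depths of 1696 and 1856 UMIs. The cluster 5 shares were well above these shares, in nuclei that were also deeper. The genes were grouped by their highest level in cluster 5, so this difference describes that grouping and supports nothing further.

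Cluster 5 was the largest holder of these 6 genes but not the holder of most of their molecules. It carried 46.3% (wildtype) and 42.1% (knockout) of the Pou4f1 UMIs, 35.6% and 29.2% of those of Barhl1, 32.4% and 35.7% of those of Tfap2d, 28.6% and 27.7% of those of Lhx9, 25.6% and 27.0% of those of Shox2 and 25.5% and 24.3% of those of Barhl2. For Pou4f1 the next cluster, cluster 6, carried 12.96% and 18.7%. The lead of cluster 5 was smaller for other genes in the knockout library. There cluster 6 carried 22.0% of the Barhl2, 24.0% of the Shox2 and 22.5% of the Lhx9 UMIs. In the wildtype library these were 11.8%, 14.3% and 10.0%. Tfap2d had a further site in cluster 11, an unnamed cluster led by 6530403H02Rik and Slit3, at 140 and 137 CPM, where Lhx9 was at 39.1 and 45.2 and Pou4f1 at 2.61 and 2.38. It also stood at 55.7 and 82.6 CPM in cluster 3, cortical excitatory neuron-like and led by 2600014E21Rik and Unc5d. Its 4.13% and 5.81% of positive nuclei in the cortical class are therefore no measure of free RNA.

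Within cluster 5 the log2 ratio of knockout over wildtype was 0.58 (0.37 to 0.80) for Tfap2d, 0.68 (0.07 to 1.32) for Barhl1 and 0.55 (0.07 to 1.03) for Shox2. For Lhx9 it was 0.00 (-0.21 to 0.21), for Pou4f1 0.11 (-0.35 to 0.57) and for Barhl2 -0.12 (-0.71 to 0.46). The same 3 genes that were higher over the whole knockout library were thus higher inside this cluster, which took near-equal shares of both libraries. At Leiden resolution 2, of these genes only Tfap2d was higher in the knockout library in its highest cluster. Tfap2d stood at 373 CPM (wildtype) and 541 CPM (knockout) in the cluster led by Gm45321. In the cluster led by D130079A08Rik, Barhl1 stood at 43.3 and 42.7 CPM and Shox2 at 72.6 and 61.5. Whether cluster 5 held the same mix of nuclei in both libraries was not tested. Among the clusters of resolution 1, others differed in the opposite direction. Barhl2 in cluster 7, unnamed and led by Ecel1 and Dcdc5, was at 25.0 CPM in the wildtype and 7.40 in the knockout library. Its log2 ratio was -1.75 (-2.70 to -0.86). Lhx9 in the choroid plexus epithelium-like cluster 21 was at 118 and 49.2 CPM (log2 ratio -1.26, interval -1.97 to -0.57). Slc17a6 in the Lhx9-positive nuclei of cluster 21 was at 139 CPM (wildtype) and 278 (knockout), against 30.3 and 97.2 in the Lhx9-negative ones. Whether these Lhx9-positive nuclei were epithelial was not tested.

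**Figure D3:**
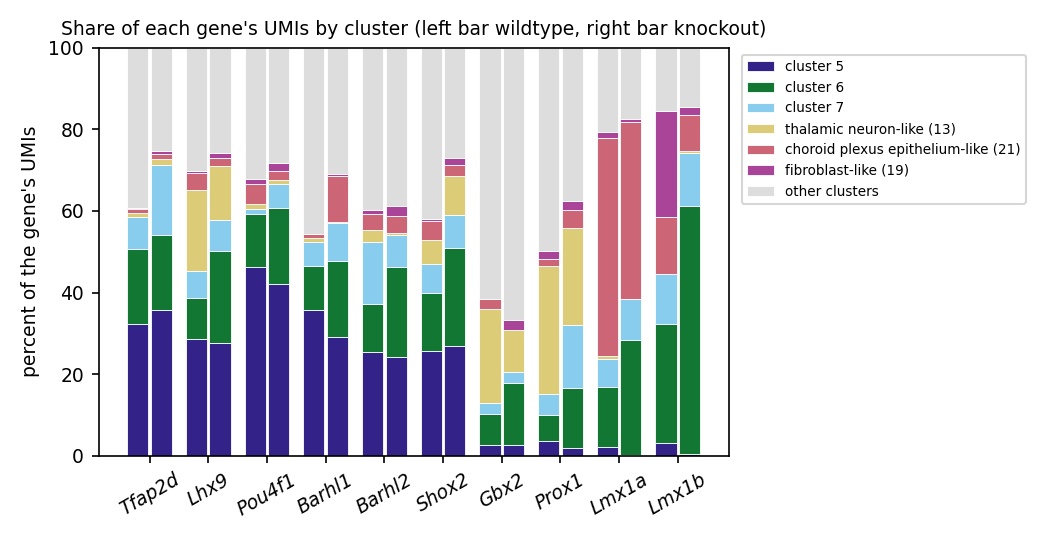
Percent of each member's UMIs that came from each named or numbered cluster, with the wildtype library as the left and the knockout library as the right bar of each pair. Cluster 5 gives 42.1% to 46.3% of Pou4f1, cluster 21 gives 43.5% to 53.6% of Lmx1a, and cluster 6 gives 60.7% of Lmx1b in the knockout library against 29.2% in the wildtype library.

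Prox1 and Lhx9 marked the thalamic neuron-like cluster 13, with 252 wildtype and 178 knockout nuclei, which carried 5 of 6 thalamic markers. Prox1 stood there at 319 and 325 CPM, against 46.3 and 43.5 over all nuclei, and 44.4% and 40.4% of its nuclei had a UMI. Lhx9 stood at 310 and 287 CPM, next to its level in cluster 5. Tfap2d, at 11.4 and 30 CPM, and Pou4f1, at 2.54 and 3.16, were low in it. Lhx9 thus had high levels in both cluster 5 and cluster 13, while Prox1 in cluster 5 was at 31.1 and 15.7 CPM. Shox2 in the thalamic neuron-like nuclei had 14 UMIs in the wildtype and 34 in the knockout library, a log2 ratio of 1.59 (0.66 to 2.60). Gbx2, a marker of early thalamus, had 9 and 4 UMIs there, 11.4 and 6.32 CPM. That is its highest level in the wildtype library, whereas in the knockout library cluster 0, with 9 UMIs at 12.1 CPM, was higher, and at such counts the order cannot be told.

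Cluster 0 held 628 wildtype and 967 knockout nuclei with medians of 740 and 706 UMIs, was led by haemoglobin and ribosomal protein genes, and was left unnamed. Of the members, Lhx9 was there at 68.6 and 68.3 CPM, Shox2 at 27.4 and 29.5, Pou4f1 at 18.9 and 24.1, and Barhl1 at 20.6 and 22.8. Those of Pou4f1, Barhl1 and Shox2 exceed the averages of all nuclei, while Tfap2d (13.7 and 22.8 CPM) and Lmx1a (5.15 and 9.38 CPM) were below theirs, for knockout Lmx1a by less than the counting interval. Without cluster 0 the log2 ratio of the summed members was 0.15, and the same count of 2 members was past 1.5-fold.

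Lmx1a went against the name of the group. Its highest level was in the choroid plexus epithelium-like cluster 21 (144 wildtype and 166 knockout nuclei, 5 of 6 markers), with 330 and 244 CPM (log2 ratio -0.43, interval -0.78 to -0.09), and that cluster carried 53.6% and 43.5% of its UMIs. Under other settings a choroid plexus epithelium-like cluster was again highest for Lmx1a but carried less of its UMIs. This share was 33.7% (wildtype) and 22.7% (knockout) at Leiden resolution 0.5 and 33.7% and 23.3% at resolution 2. With the highest Scrublet doublet scores removed it was 32.1% and 16.3%. Of the nuclei of cluster 21, 40.3% and 33.7% had a Lmx1a UMI, against 0.239% and 0.987% of cortical excitatory neuron-like nuclei. Cajal-Retzius cell-like nuclei followed at 74.6 and 65.2 CPM, on 15 and 14 UMIs. In cluster 6, Lmx1a was at 20.7 and 20.0 CPM.

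Lmx1b was spread over 3 places. In the wildtype library its highest level was in the fibroblast-like cluster 19, with 17 UMIs at 50.4 CPM, where the knockout library had 4 UMIs at 10.3 CPM. In the choroid plexus epithelium-like nuclei it had 9 and 18 UMIs, 20.7 and 30.5 CPM. The cluster with most of its UMIs in each library was cluster 6, led by Gm28526, Cdh18 and Skor2 and left unnamed, with 19 wildtype and 122 knockout UMIs at 10.1 and 26.2 CPM, a log2 ratio of 1.38 (0.68 to 2.16). Cluster 6 made up 5.50% of wildtype and 10.7% of knockout nuclei, and it is deep, with medians of 4164 and 4707 UMIs. With cluster 6 left out the log2 ratio of Lmx1b was 0.79, a point value still past 1.5-fold. It rests on fewer UMIs than the ratio over all nuclei, and its interval is not given here.

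Some genes of the midbrain-hindbrain boundary and the hindbrain, named after their values were seen, were also higher in the knockout library. En1 and En2, factors of the midbrain-hindbrain boundary, had 52 and 51 UMIs in the wildtype and 208 and 179 in the knockout library, log2 ratios of 1.79 and 1.60. Slc6a5, the glycine transporter of hindbrain and spinal inhibitory neurons, had 7 and 100 UMIs, a log2 ratio of 3.63. Gbx2 (-0.21) and Gata3 (0.01), likewise expressed in the hindbrain, did not share this. The part of such genes' cells in the Lmx1b difference was not tested, and with 1 library per genotype the region sampled and the genotype cannot be told apart. Of genes specific to dopamine or serotonin neurons, Th had 13 and 27 UMIs, Pitx3 8 and 8, Fev 0 and 2 and Tph2 4 and 15, while the more widely used Slc18a2 (697 and 748), Nr4a2 (391 and 436) and Gata3 (334 and 389) had more.

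In the choroid plexus epithelium-like nuclei Barhl1 had 1 UMI in the wildtype and 24 in the knockout library, 2.30 and 40.7 CPM, a log2 ratio of 4.14 (1.52 to 9.504). Those 24 UMIs lay in 10.2% of the knockout nuclei of that cluster, against 0.694% of the wildtype ones. Slc17a6 stood at 224 CPM in the knockout nuclei of the cluster with Barhl1 and at 109 in those without it. Whether the Barhl1-positive nuclei were epithelial was not tested. Larger counts of Barhl1 lay in cluster 5 (36 and 63 UMIs) and, in the knockout library, cluster 6 (11 and 40 UMIs). A ratio against 1 UMI is very uncertain, as its interval shows.

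The question whether the members mark excitatory nuclei was put to Slc17a6, counted in nuclei with and without each member. Over all nuclei Slc17a6 had 112 CPM in the wildtype and 123 in the knockout library. In Lhx9-positive nuclei it stood at 198 and 217 CPM against 93.3 and 98.0 in Lhx9-negative nuclei, 2.12-fold and 2.22-fold. With Tfap2d the values were 200 (wildtype) and 257 (knockout) against 103 and 104, 1.95-fold and 2.46-fold. With Pou4f1 they were 208 and 240 against 110 and 117, 1.89-fold and 2.04-fold. A fold of at least 2 was reached by 1 member in the wildtype and 3 in the knockout library, while of 14947 genes found in at least 50 nuclei of each library 0.12% and 0.114% reached it. The median fold over those genes was 0.99 and 1.06, so that these 3 factors lay at the far end of all genes.

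**Figure D4:**
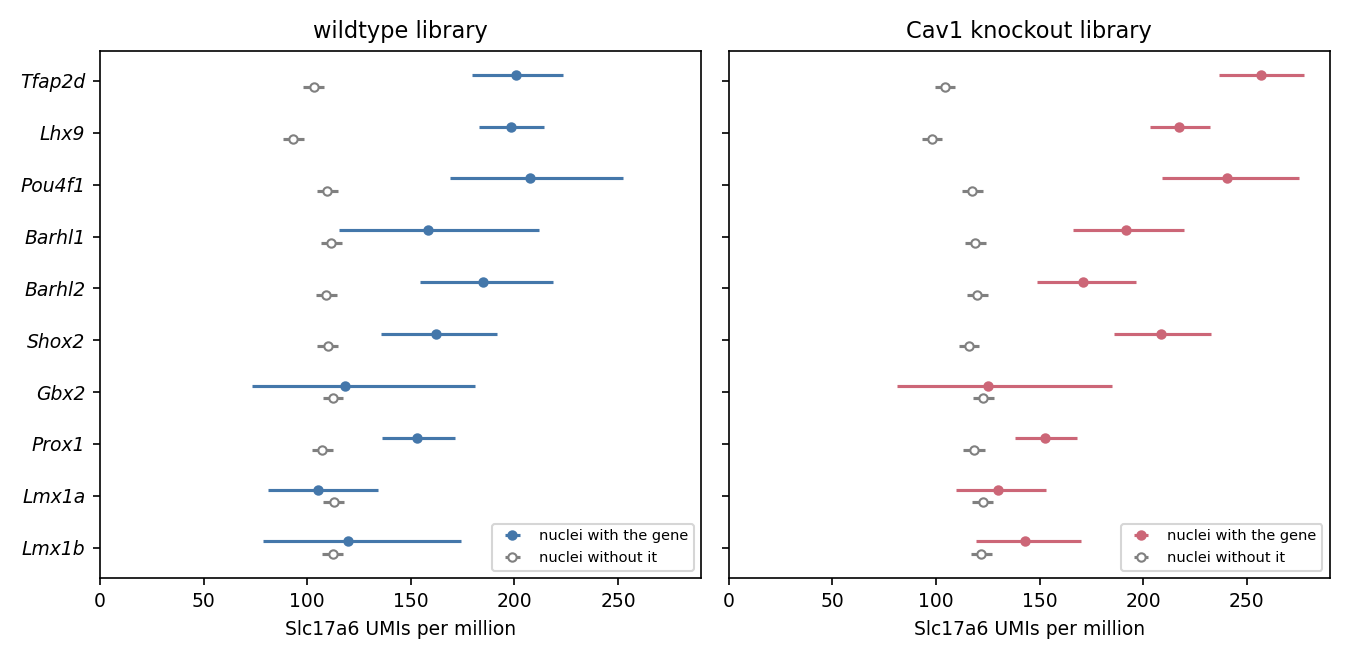
Slc17a6 level in CPM in nuclei with a UMI of each member (filled) and in nuclei without one (open), in the wildtype (left) and knockout (right) library; bars are 95% counting intervals. Filled and open points lie far apart for Tfap2d, Lhx9 and Pou4f1, and their intervals overlap for Gbx2, Lmx1a and Lmx1b and, in the wildtype library, Barhl1.

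The other members lay lower. The Slc17a6 fold was 1.47 and 1.80 with Shox2, 1.69 and 1.43 with Barhl2, 1.42 and 1.61 with Barhl1 and 1.43 and 1.29 with Prox1. With Lmx1a it was 0.93 and 1.06, with Lmx1b 1.07 and 1.17, and with Gbx2 1.05 and 1.02. The Lmx1 genes and Gbx2 thus lay near the median of all genes and the other members above it. Requiring 2 or more UMIs of the member gave a fold of 0.94 for Barhl1 in the wildtype library, on 12 nuclei, and of 0.90 for Barhl2 in the knockout library, on 20 nuclei.

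As shares, 46.5% of wildtype and 54.7% of knockout Tfap2d-positive nuclei had a Slc17a6 UMI, against 15.9% and 17.2% of the others. For Lhx9 the shares were 43.8% and 49.3%, against 14.2% and 15.9%. Positive nuclei were deeper, with medians of 2950 against 2051 UMIs for Lhx9 in the wildtype library, and the median share fold over all genes was 1.40 and 1.56. Thinned to 1000 UMIs, Slc17a6 was found in 25.5% and 31.4% of Tfap2d-positive against 8.78% and 9.02% of negative nuclei, and in 19.7% and 23.8% against 8.73% and 9.27% for Lhx9. For Pou4f1 it was 19.1% against 9.25% in the wildtype but 11.4% against 9.99% in the knockout library, on 47 and 44 positive nuclei. At equal depth the difference was thus kept by Tfap2d and Lhx9 in both libraries, and that of Pou4f1 in the knockout library was small.

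Gad2, which makes GABA, was lower in nuclei with a member than without it for 10 of 10 members in the wildtype and 9 of 10 in the knockout library, with folds of 0.45 to 0.85 and 0.52 to 1.00. The exception was Prox1, at 1.00. The count is near the background, since Gad2 was under 1-fold for 84.1% and 89.0% of 14947 genes. As shares of nuclei, Gad2 was found in more of the positive than of the negative nuclei for wildtype Gbx2 (40.5% against 25.4%) and Prox1 (30.3% against 25.1%) and for knockout Barhl2 (31.2% against 24.9%), among others. Among Tfap2d-positive nuclei 35.6% and 40.1% had Slc17a6 and none of the inhibitory genes Gad1, Gad2 and Slc32a1, and 12.0% and 10.9% had inhibitory genes alone. Over all nuclei the shares were 14.3% and 15.2% for Slc17a6 alone and 29.1% and 28.3% for inhibitory genes alone. Prox1-positive nuclei, with 21.8% and 17.3% for Slc17a6 alone and 31.0% and 30.6% for inhibitory genes alone, had the order of all nuclei, as had those of Gbx2 (27.0% and 20.5% against 37.8% and 35.9%). Prox1 was also present in forebrain inhibitory neuron-like cluster 8 at 55.8 and 52.6 CPM.

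The nuclei of cluster 5 had 288 and 321 CPM of Slc17a6 as a whole, and the fold between nuclei with and without a member was 0.82 to 1.31 for the 6 factors in the wildtype library, with intervals that all include 1. In the knockout library it was 0.94 to 1.72, with an interval above 1 for Lhx9 (1.72) and Barhl2 (1.40). In cluster 13 the Slc17a6 fold with Prox1 was 0.95 and 1.05. The folds in clusters 7 and 11 were in part larger. With Tfap2d the fold was 4.18 in cluster 7 and 4.08 in cluster 11 of the knockout library, above that over all nuclei, and 1.84 and 1.90 in the wildtype library. With Lhx9 it was 2.33 and 2.52 in cluster 7. In cluster 11 it was 2.04 in the wildtype but 0.55 (0.21 to 1.19) in the knockout library. High Slc17a6 was not confined to the members' clusters: its highest level, 354 and 393 CPM, was in the cortical excitatory neuron-like cluster 3.

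Co-detection of the members with each other was set against the product of their single shares, over 45 pairs. In 13 pairs the nuclei with both genes were at least 2 times that product in each library, while 5.02% of the 111743775 pairs of genes found in at least 50 nuclei of each library reached it. Of the 13 pairs, 12 were among the 15 pairs of Tfap2d, Lhx9, Pou4f1, Barhl1, Barhl2 and Shox2, the genes grouped above by their highest level in cluster 5. Tfap2d and Lhx9 met in 121 wildtype and 183 knockout nuclei, 2.84 and 3.18 times the product. Thinned to 1000 UMIs this pair was at 1.71 times (1.014 to 2.70) in the wildtype library, under 2 times, and at 2.91 times (2.04 to 4.03) in the knockout library. The 121 nuclei were 32.4% of the Tfap2d-positive and 15.9% of the Lhx9-positive nuclei of the wildtype library. Tfap2d and Pou4f1 met in 35 and 43 nuclei (4.78 and 3.33 times), Lhx9 and Shox2 in 73 and 105 (3.01 and 2.95 times), and Pou4f1 and Barhl2 in 15 and 17 (4.4 and 3.29 times). With nuclei thinned to 1000 UMIs, 11 pairs reached 2 times the product in each library, against 1.59% of all gene pairs. These were in part other pairs. Tfap2d with Lhx9, Tfap2d with Barhl2, Pou4f1 with Barhl1, Pou4f1 with Shox2 and Barhl1 with Barhl2 dropped out, all of them among the 15. Lhx9 with Barhl1, Lhx9 with Prox1 and Shox2 with Prox1 came in. Some of the 11 rested on very few nuclei, such as Pou4f1 with Barhl2 on 2 wildtype and 1 knockout nuclei. An interval above 1 in both thinned libraries was found for 5 of the 45 pairs, 4 of them among the 15.

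**Figure D5:**
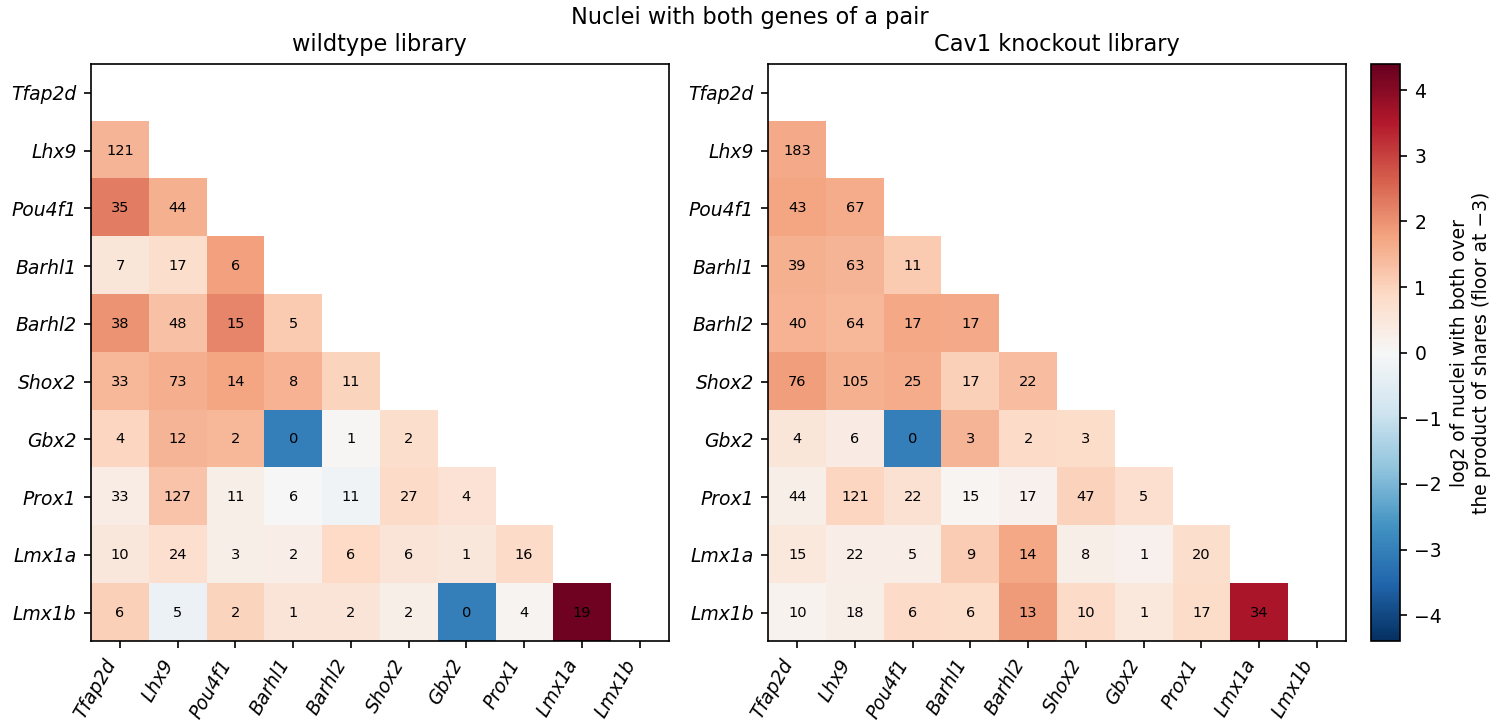
Number of nuclei with UMIs of both genes of a pair (printed) and, as colour, the log2 of that number over the product of the single shares, in the wildtype (left) and knockout (right) library; pairs with no such nucleus are drawn at -3. The pairs among the first 6 genes are red, palest for Tfap2d with Barhl1 in the wildtype library, Lmx1a with Lmx1b is the darkest square at 19 and 34 nuclei, and Prox1 with Tfap2d is pale, at 33 and 44 nuclei.

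Of the 13 pairs found without thinning, the one beyond these 15 was Lmx1a with Lmx1b, in 19 and 34 nuclei. That is 19.2 times (11.6 to 30.04) the product in the wildtype and 12.1 times (8.40 to 16.9) in the knockout library, the largest ratio of all 45 pairs. Thinned to 1000 UMIs it rested on 1 wildtype nucleus, with a ratio of 6.95 (0.176 to 38.7) whose interval includes 1, and on 3 knockout nuclei, with a ratio of 7.37 (1.52 to 21.5). Lhx9 and Prox1, the genes of the thalamic neuron-like cluster, met in 127 and 121 nuclei, 2.38 and 1.94 times the product. Tfap2d and Prox1 met in 33 and 44, 1.26 and 1.18 times, with intervals that include 1.

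Inside cluster 5 the pairs did not stand out. Of the 15 pairs of the 6 factors, 15 in each library had an interval that includes 1, with ratios of 0.45 to 1.48 (median 1.06) in the wildtype and 0.76 to 1.32 (median 1.13) in the knockout library. Counts of 2 to 89 nuclei per pair keep the smallest of these intervals wide. In the nuclei outside cluster 5 the median ratio was 2.15 and 2.40. There too the interval included 1 for 6 of the 15 pairs in the wildtype and for 3 in the knockout library. Joint detection was thus near the product of shares within the cluster and, for most pairs, above it among the other nuclei. Those other nuclei come from many clusters of unlike depth, and these ratios were not taken at equal depth.

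The 6 factors were grouped by their highest level in cluster 5, so how often they were found there describes that grouping and supports nothing further. At least 1 of the 6 was found in 82.5% (77.8 to 86.5) of its wildtype and 83.8% (79.3 to 87.7) of its knockout nuclei, against 17.5% and 20.2% elsewhere. At least 2 were found in 42.9% and 54.2%, against 2.32% and 3.70%, and at least 3 in 15.3% and 24.6%, against 0.423% and 0.865%. In numbers, cluster 5 held 132 wildtype and 174 knockout nuclei with at least 2 factors, fewer than the 148 and 235 of all other clusters together, and 47 and 79 with at least 3, more than the 27 and 55 elsewhere. Of all 10 members, 5 or more were found in 5 wildtype and 16 knockout nuclei, of which 2 and 9 held over 20000 UMIs. Doublets were not removed. Without all nuclei over 20000 UMIs, 12 pairs reached 2 times the product in each library, and with the highest Scrublet doublet scores removed 15 did.

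The genes most raised in nuclei of each member, for the 9 members found in at least 50 nuclei of each library, were ranked by the lower of their folds in the 2 libraries. D130079A08Rik, a noncoding gene that lies 2339 bases from Pou4f1 on chromosome 14, was among the first 5 for Tfap2d, Lhx9, Pou4f1, Barhl1, Barhl2 and Shox2. With Pou4f1 it was 15.7-fold and 23.1-fold higher in positive nuclei, with Lhx9 6.57-fold and 5.08-fold and with Tfap2d 5.75-fold and 6.42-fold. The neighbouring D130009I18Rik, 132537 bases from Pou4f1, followed at 6.46-fold and 13.8-fold with Pou4f1. Tfap2d was led by Gm15825, the antisense gene at its own start, at 15.7-fold and 14.9-fold on 25 and 37 UMIs, and Prox1 by Prox1os, at 8.51-fold and 7.53-fold on 72 and 89 UMIs. These are the partners of the promoter windows shown above, and where they overlap the member, reads of one may have been counted for the other.

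With Lhx9, Shox2 and Prox1 went Gm12828, which lies within Rnf220 on chromosome 4, at 5.33-fold and 3.36-fold, 2.33-fold and 2.81-fold, and 6.41-fold and 4.41-fold. Barhl1 went with Ebf2 and Ebf3, helix-loop-helix factors of postmitotic neurons, at 6.78-fold and 2.15-fold and at 5.13-fold and 2.23-fold. Barhl2 went with Reln, the secreted signal of Cajal-Retzius cells, at 2.10-fold and 3.88-fold. Lmx1a went with choroid plexus and cilia genes: Htr2c, a serotonin receptor of choroid plexus, at 40.7-fold and 24.7-fold, Gmnc, a regulator of multiciliated cells, at 56.7-fold and 25.1-fold, and Dnah6, a ciliary dynein, at 38.3-fold and 20.99-fold. Lmx1b was led by Gm43824 at 33.1-fold and 17.8-fold, on 22 and 47 UMIs. In these rankings Slc17a6 was in place 20 of 10162 genes for Tfap2d, 28 of 12424 for Lhx9 and 34 of 5295 for Pou4f1, but 320 of 10897 for Prox1, 688 of 2621 for Lmx1b and 3213 of 6449 for Lmx1a.

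Other genes of the same regions, and transmitter genes, were counted from lists of companions. Of 7 thalamic genes with at least 100 UMIs, 0 were past 1.5-fold in either direction; the log2 ratio was 0.19 for Rora, -0.20 for Foxp2 and -0.15 for Tcf7l2. Of 9 midbrain tectal genes 3 were past it, all upward in the knockout library: Ebf2 (log2 ratio 0.92), Ebf3 (0.73) and Pou4f2 (0.72, on 41 and 78 UMIs), while Meis2 (-0.14) and Ebf1 (0.14) were not. Of 6 habenular genes 1 was past it, Irx2 (0.70), and Etv1 (0.04) and Tac1 (0.18) were not. Of 6 floor plate and dopaminergic genes the 2 past it were En1 and En2, given above, while Slc18a2 (-0.11) and Nr4a2 (-0.05) were not. Of 2 serotonergic genes Gata2 was past it (0.94, on 33 and 73 UMIs) and Gata3 (0.01) was not. Of 6 transmitter genes 1 was past it upward, Slc6a5, given above. Slc17a7 was past it downward (-0.64, on 198 and 147 UMIs), the only such call of the lists, while Gad2 (-0.16) and Slc17a6 (0.13) were not past it. Against the 2.12% of all genes, upward calls were thus found in each of these lists except the thalamic one, on small numbers of genes. The lists were chosen with earlier results of these data known, so the 2.12% is no independent background for them.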

How the data were processed

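Per the labels, nuclei of frozen fetal brain were captured with 10x Genomics 3′ chemistry v3.1. The authors deposited unnormalized UMI counts for each gene in each barcode; the submitters' processing notes name Cell Ranger 3.0.1, STAR and GRCm39, and the file headers name Cell Ranger 6.1.1. Whether introns or strand were used in counting is not given in the sources used here. No barcode held under 500 UMIs.

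Nuclei with at least 500 genes and at most 5% mitochondrial UMIs were summed per library. Genes with at least 100 UMIs over both libraries formed the background. Doublets were not removed; Scrublet's automatic threshold marked 0 nuclei, which is a caller that has not worked, and removal of the 8% highest scores was an alternative. Clusters came from scanpy: 2000 variable genes per library, 30 components, 15 neighbours and Leiden resolution 1. A name needed at least 3 markers, and no fewer than 1 in 2 of its list, at 2-fold over the other clusters and 1.5-fold within each library; thresholds were set after clusters were seen, and names are not the authors'. The name erythroid needed 50% haemoglobin UMIs.

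Named genes were all members, the 5 genes most raised with each member found in at least 50 nuclei of each library (at least 20 UMIs in positive nuclei), the 2 to 4 list genes with most UMIs and genes overlapping a member; other list genes were named after their values were seen. Members and lists were chosen with earlier results of these data known. Gene positions are from GENCODE M39, which held 98.8% of the features. The intervals and folds were tested on simulated data. Those data held counting error but no spread between animals or libraries, so this check cannot speak to such spread.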

Additional observations from a re-analysis of the deposited data

Results flagged for a closer look

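For Lmx1b, Prox1 and Tfap2d, nuclei of some clusters were higher in the knockout library and those of others lower, in each case with a counting interval that excludes 0. These differences between clusters were not tested, and each rests on 1 library per genotype. The log2 ratio of Lmx1b was 1.38 in cluster 6 and -2.29 in the fibroblast-like cluster 19. For Prox1 it was 0.86 in cluster 7 and 1.22 in the choroid plexus epithelium-like cluster 21, against -2.05 in cluster 3, -0.98 in cluster 5 and -1.58 in cluster 14. For Tfap2d it was 0.57 in cluster 3, 0.58 in cluster 5, 0.82 in cluster 7 and 1.39 in cluster 13, against -0.73 in cluster 6.

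Barcodes with under 500 genes, left out of the nuclei described and used otherwise only in the alternative with a minimum of 200 genes, carried the members at 264 CPM in the wildtype and 267 in the knockout library (2969 and 3904 barcodes), near the 230 and 256 of the kept nuclei. Shox2 stood at 53.0 and 54.6 CPM in them and Pou4f1 at 25.9 and 24.7, both above their level in kept nuclei, while Tfap2d, at 20.5 and 18.1, and Lmx1a, at 6.62 and 6.17, were below it.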

How the results depend on the processing

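The summed members kept a higher level in the knockout library under all 7 alternatives run for it (log2 ratio 0.13 to 0.21). Barhl1 (0.87 to 1.00) and Lmx1b (0.79 to 1.52) stayed past 1.5-fold under the alternatives of filter, scaling and left-out nuclei, 0 members were lower in each of them, and only the call at 2-fold changed the count, to 1. The sign of the Gbx2 and Lmx1a ratios turned under 1 alternative each (to 0.14 with a minimum of 200 genes, and to -0.02 without nuclei over 20000 UMIs). Pairs at 2 or more times the product numbered 11 to 17. The percent of nuclei with a member UMI, 26.9% and 31.0%, moved with depth: to 22.8% and 24.9% with a minimum of 200 genes, 31.1% and 35.7% with 1000, 25.6% and 29.8% without the highest Scrublet scores, and 15.4% and 17.0% thinned to 1000 UMIs. Thinned to 2000 UMIs the knockout value was 28.1%. It was 28.0% and 33.3% without cluster 0 and 25.7% and 28.6% without cluster 6, alternatives that, like the one over 20000 UMIs, were chosen after seeing the data. The Slc17a6 fold with any member, 2.20 and 2.32, was 2.71 and 2.90 where the member needed 2 UMIs; under that setting the fold was 0.94 for Barhl1 (wildtype) and 0.90 for Barhl2 (knockout). The 6 members with their highest level in the cluster of Tfap2d became 1 at Leiden resolution 0.5 and 1 at resolution 2, and the cause was not tested. No paired analysis was possible because each genotype has 1 library. Depth limits Gbx2 most, with 39 UMIs per library.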
